A study of Mus musculus with 6 samples.

Results

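Transcripts of carriers for amino acids, sugars, monocarboxylates, nucleosides and related small molecules were compared between control uteri and uteri in which Foxo1 had been deleted. The question was how the messages for nutrient import and export stood in the receptive-phase uterus with and without FOXO1. The measurement was RNA-seq of whole uterine tissue from 8-week-old C57BL/6J mice mated with vasectomized males and collected at day 4.5 of pseudopregnancy. Every library was made from the pooled RNA of 2 females, and there were 3 libraries for each genotype. The controls were Foxo1f/f. The deleted group was PgrCre/+ Foxo1f/f, written Foxo1d/d, so that both groups carried the floxed alleles and 1 group also carried the Cre. The Cre was expressed from the progesterone receptor locus. It therefore acts in the uterine cells that express the receptor, and also in pituitary and ovarian granulosa cells. Cells of the uterus that do not express it, such as those of blood vessels, keep an intact gene.

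The table used here gave, for each of 23420 genes, the authors' mean raw count over the libraries of a genotype. No value of a single library was used, so the spread between libraries, p-values and standard deviations could not be computed. The means added up to 26125014 for the controls and 27257963 for Foxo1d/d, whose values are also given as those after deletion. Where a gene is given with a pair of counts or levels, the first is of the controls and the second of Foxo1d/d. A log2 ratio sets Foxo1d/d over Foxo1f/f after each mean, plus a pseudocount of 1, was divided by its column total. A gene was tested where its 2 means averaged at least 10, and it is called higher or lower in Foxo1d/d where its ratio was past 1.5-fold. The 95% interval beside a ratio is a Wilson interval from the counts summed over the 3 libraries. It covers counting error only. Reads copied by PCR are not independent molecules, and per the study's methods duplicate reads were removed before counting. Levels of different carriers are compared as CPM per kilobase of exon, where CPM are counts scaled to a column total of 1000000, and sets of cell type markers are summed as CPM without regard to length.

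Solute carriers are membrane proteins that move small molecules down their gradient or, coupled to sodium, chloride or protons, against it. The glucose carriers of the SLC2 family feed stromal cells as they prepare for decidualization, and the amino acid carriers of the epithelium set what reaches the uterine lumen and an embryo in it. FOXO1 is a forkhead transcription factor that insulin signalling through AKT keeps out of the nucleus, and it controls many genes of metabolism in other tissues.

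The deleted gene was lower in the group that its label says. Foxo1 averaged 3941 counts in controls and 1456 after deletion, for a log2 ratio of -1.50 (95% counting interval -1.55 to -1.45). The count covers the whole gene, so reads from exons outside the deleted part are in it. In whole tissue, fewer cells that express a gene and less RNA of it per cell cannot be told apart, and this holds for every ratio given here.

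The 14 families studied held 118 genes of the table. Of these, 90 were tested, 28 were under the minimum, and 4 of those 28 were listed at 0 in both genotypes (Slc6a5, Slc6a11, Slc6a18 and Slc7a12). Among the 90 tested carriers, 11 (12.2%) were past 1.5-fold higher in Foxo1d/d, against 5.43% of all 15696 tested genes. A further 8 (8.89%) were past 1.5-fold lower, against 3.51% of all tested genes. Both shares were above those of the whole table. The carriers were chosen with earlier results of these data known, so the gap is a description and was not tested. The median log2 ratio of the carriers was -0.00 and that of all tested genes was 0.02, both near 0. Disregarding direction, the median size of the log2 ratio was 0.22 for the carriers and 0.14 for all tested genes. The 166 tested genes of other Slc families had 6.63% higher and 7.23% lower, with a median of 0.01, and of -0.01 under the median and upper-quartile scalings.

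**Figure D1:**
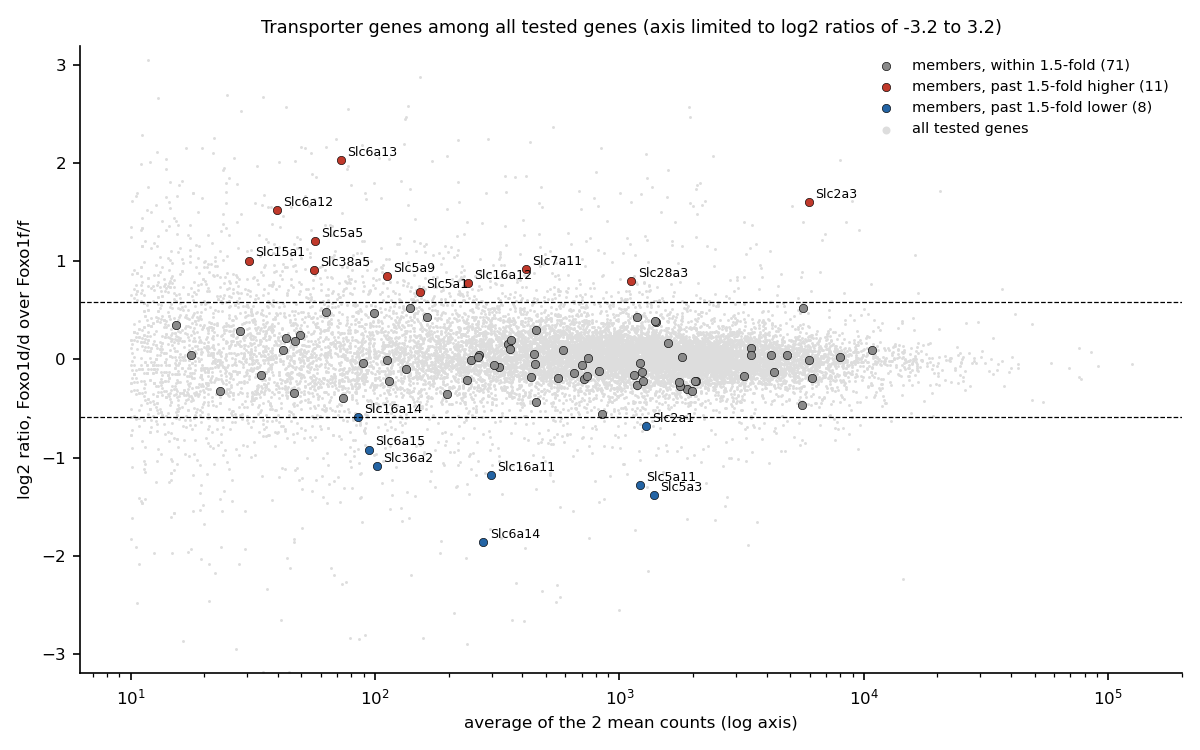
Foxo1d/d to Foxo1f/f log2 ratio (vertical axis) against the average of the 2 mean counts (horizontal log axis) for all tested genes in grey and the 90 tested carriers in colour. The 11 carriers higher and the 8 lower lie outside the dashed 1.5-fold lines, with Slc2a3 having the most counts of the higher ones, and 25 tested genes fall outside the vertical axis.

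Ratios of genes with few counts spread more widely, so the carriers were also set beside genes of like abundance. At an average mean count from 10 to 100, 33.3% of 21 carriers and 26.1% of 2746 genes were past 1.5-fold in either direction. From 100 to 1000 the shares were 19.4% of 36 carriers and 7.9% of 5847 genes. At 1000 and above they were 15.2% of 33 carriers and 3.17% of 7103 genes. The gap between the shares was thus narrowest, as a ratio, among genes with the fewest counts. Of the 19 carriers past 1.5-fold, 17 kept the whole counting interval past it, and the exceptions were Slc5a1 and Slc16a14.

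The remaining 71 tested carriers lay between log2 ratios of -0.55 and 0.53, 32 of them above 0 and 39 below. Within 0.25 of 0 were 49 of the 90 tested carriers (54.4%), a smaller share than the 70.9% of all tested genes. Members past 1.5-fold belonged to 9 of the 14 families. None was in SLC1, SLC3, SLC27, SLC29 or SLC43.

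**Figure D2:**
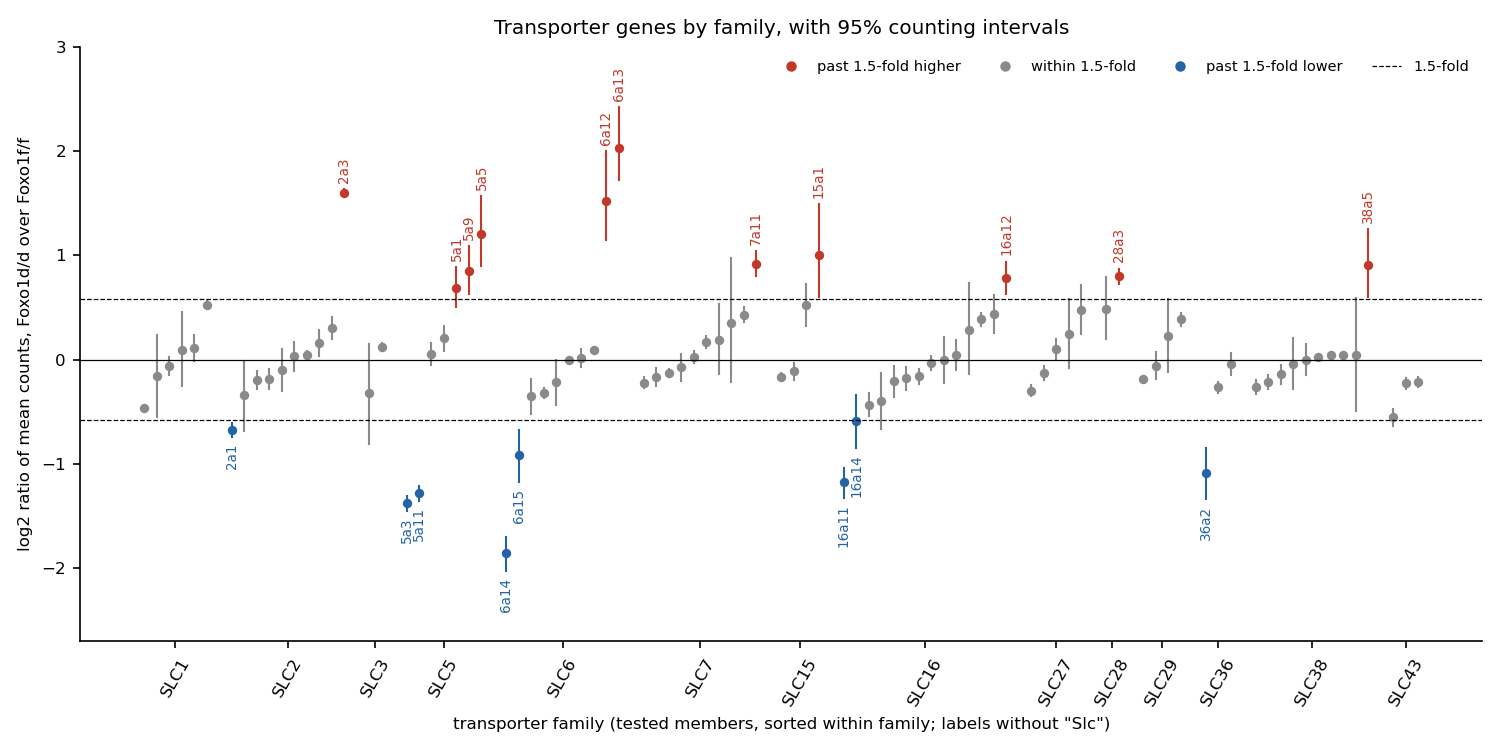
Foxo1d/d to Foxo1f/f log2 ratio for each of the 90 tested carriers, grouped by family on the horizontal axis and sorted within it, with 95% counting intervals as bars. Carriers past 1.5-fold are labelled, and SLC2, SLC5, SLC6 and SLC16 hold members on both sides of the dashed lines.

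The SLC2 family carries glucose and other sugars by facilitated diffusion, and a pair of its glucose carriers differed in opposite directions. Slc2a3, the high-affinity glucose carrier GLUT3 (Entrez Gene 20527), averaged 2868 counts in controls and 9090 after deletion. Its log2 ratio was 1.60 (1.57 to 1.64), the highest among members with an average mean count of at least 1000. Slc2a1, the widely expressed glucose carrier GLUT1, had 1557 and 1016, for a log2 ratio of -0.68 (-0.74 to -0.61). Per length, Slc2a3 stood at 27.7 CPM per kilobase in Foxo1f/f, the 13th of the 118 carriers, and at 84.2 in Foxo1d/d, the first. Slc2a1 stood at 18.3 and 11.4. The order of these 2 carriers was the same in both genotypes, but Slc2a3 made up 24.9% of the family's summed level in controls and 52.5% after deletion.

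Other SLC2 members lay within the limit. Slc2a12, which carries glucose, was the most abundant member per length in Foxo1f/f at 30.6 CPM per kilobase and stood at 31.5 in Foxo1d/d. Slc2a4, the insulin-responsive carrier GLUT4, had a log2 ratio of -0.19. Over the family, 10 of 12 genes were tested, 1 was higher and 1 lower, and the median log2 ratio was -0.04. The summed level was 111 in controls and 160 after deletion, a ratio of 1.44.

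Sodium-coupled carriers of the SLC5 family had the largest share past the limit, 5 of 7 tested genes, with 3 higher and 2 lower and a median log2 ratio of 0.20. Both lower genes encode sodium-coupled carriers of myo-inositol, a polyol that serves as osmolyte and as the precursor of inositol lipids. Slc5a3 (Entrez Gene 53881) averaged 1980 counts in controls and 792 after deletion, for a log2 ratio of -1.38 (-1.45 to -1.31). Slc5a11 had 1693 and 725, for a log2 ratio of -1.28 (-1.36 to -1.21). Slc5a11 was the family's most abundant member per length, at 27.04 CPM per kilobase in controls and 11.1 after deletion. The exons of Slc5a3 share 159 of their 10913 bases with those of Mrps6 on the same strand, and Mrps6 had a log2 ratio of -0.37.

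A proton-coupled carrier of myo-inositol, Slc2a13, was grouped with these 2 after their values were seen. It had a log2 ratio of 0.16, at a level of 1.90 in controls and 2.12 after deletion. The 3 inositol carriers together stood at 35.9 CPM per kilobase in controls and 15.9 after deletion, a ratio of 0.443. Genes that make or recycle inositol, also chosen after the values were seen, were within the limit, with log2 ratios of -0.01 for the synthase gene Isyna1, 0.12 for Impa1 and -0.12 for Impa2. Nfat5, whose product drives osmolyte carriers under high tonicity, had -0.18.

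The 3 SLC5 members that were higher had far fewer counts than the inositol carriers. Slc5a1 encodes the sodium-glucose carrier SGLT1 and averaged 114 and 192, for a log2 ratio of 0.69 (0.50 to 0.89). Slc5a9, a sodium-coupled carrier of mannose and other hexoses, had 77.3 and 147, for a log2 ratio of 0.85 (0.63 to 1.09). Slc5a5, the sodium-iodide symporter, had 33 and 81, for a log2 ratio of 1.21 (0.90 to 1.57). Their levels per length stayed at or below 1.71 CPM per kilobase in both genotypes. The family's summed level followed its 2 abundant members and was 42.9 in controls and 25.0 after deletion, a ratio of 0.583, although its median log2 ratio was above 0.

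**Figure D3:**
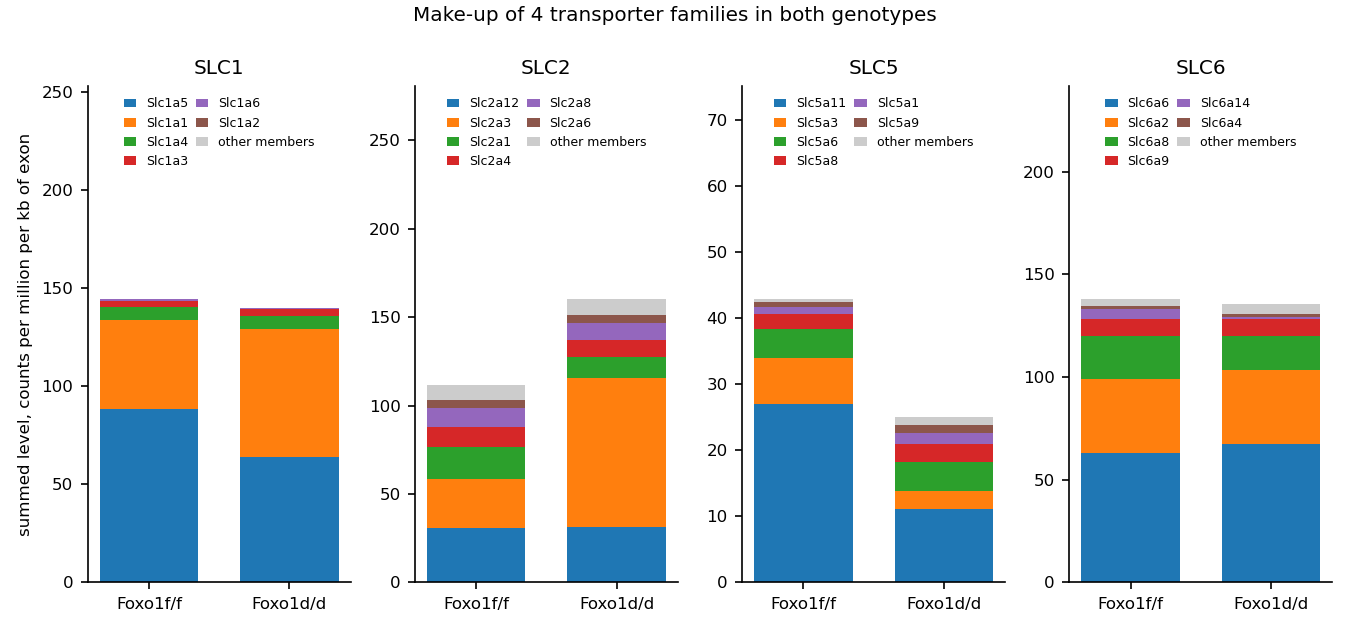
Summed level of 4 families in Foxo1f/f and Foxo1d/d as CPM per kilobase of exon, stacked by member, with the 6 most abundant members named. The SLC2 bar is taller in Foxo1d/d with a larger Slc2a3 part, the SLC5 bar is shorter with smaller Slc5a11 and Slc5a3 parts, and SLC1 and SLC6 keep nearly equal totals.

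In the SLC6 family, whose carriers use sodium and chloride, 10 of 19 genes were tested, with 2 higher, 2 lower and a median log2 ratio of -0.11. Slc6a14 takes up neutral and cationic amino acids with broad specificity. It averaged 432 counts in controls and 124 after deletion, for a log2 ratio of -1.86 (-2.03 to -1.70), the lowest of all tested carriers. Slc6a15, a carrier of branched-chain amino acids and proline, had 122 and 66.7, for a log2 ratio of -0.92 (-1.18 to -0.68).

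The 2 higher SLC6 members carry GABA and related compounds. Slc6a13 averaged 27 counts in controls and 119 after deletion, and its log2 ratio of 2.03 (1.73 to 2.42) was the highest of all tested carriers. Slc6a12, the betaine and GABA carrier, had 19.3 and 60, for a log2 ratio of 1.52 (1.15 to 2.00). These genes are neighbours on chromosome 6, and the first start-site windows listed for them lie 42.3 kb apart. Both remained scarce, at 1.95 and 0.833 CPM per kilobase in Foxo1d/d.

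The abundant SLC6 members lay within the limit. Slc6a6, the taurine carrier, averaged 10187 and 11323, the most counts of any carrier, with a log2 ratio of 0.09 (0.07 to 0.11). Slc6a2, the noradrenaline carrier, had 5856 and 6101, for a log2 ratio of -0.00 (-0.03 to 0.03). The creatine carrier Slc6a8 had a log2 ratio of -0.32. These 3 genes held most of the family's summed level, which was 138 in controls and 135 after deletion.

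Heavy and light subunits of the heteromeric amino acid carriers are encoded by SLC3 and SLC7 genes, the latter of which also include the cationic carriers. Of 12 tested genes in these 2 families, 1 was higher and none was lower, and the median log2 ratio was 0.07. The higher gene was Slc7a11 (Entrez Gene 26570), the cystine-glutamate exchanger that supplies cystine for glutathione. It averaged 278 counts in controls and 551 after deletion, for a log2 ratio of 0.92 (0.80 to 1.04). Its heavy-chain partner Slc3a2 had 3233 and 3663, for a log2 ratio of 0.12 (0.08 to 0.16). Slc7a5, another light chain that pairs with Slc3a2 and carries large neutral amino acids, had a log2 ratio of 0.43, while the related Slc7a8 had -0.22. The cationic carriers Slc7a1 and Slc7a2 had 0.16 and -0.13.

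Slc7a11 was the sole carrier past 1.5-fold whose promoter held any of the motifs searched, so its promoter is shown. Promoters of 300 bases, from 250 before to 50 after each start site, came from RefSeq (GRCm38.p6) and were found for 87 of the 118 carriers and for 15 of the 19 past 1.5-fold. No entry was found for Slc2a3, Slc5a9, Slc6a15 and Slc36a2. The Slc7a11 promoter lies at chr3:50443564-50443863 on the minus strand. Capitals mark the forkhead core GTAAACA, read here on the opposite strand at -232 from the start site, and 2 copies of the amino acid response element TGATGNAA, at -66 on the gene's strand and at -47 on the other.
Slc7a11: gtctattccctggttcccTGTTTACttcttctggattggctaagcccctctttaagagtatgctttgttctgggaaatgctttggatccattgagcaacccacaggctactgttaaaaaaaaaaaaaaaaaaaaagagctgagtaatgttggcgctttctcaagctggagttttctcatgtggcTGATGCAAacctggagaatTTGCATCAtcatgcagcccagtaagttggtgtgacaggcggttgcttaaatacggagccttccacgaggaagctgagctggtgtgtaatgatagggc

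The forkhead core was present in 3.65% of all 32851 promoters of this length and in 3 of the 119 promoters of carriers (2.52%). A second forkhead form, CAAAACA, was in 6.28% of all promoters and in 7 of those of carriers (5.88%). The amino acid response element was in 3.97% and in 5 (4.2%). None of the 3 motifs was found in the 6 promoters of carriers that were lower. Both strands were searched, the motifs do not overlap in the Slc7a11 promoter, and a match is a description of the letters, not a site or a cause. The promoters of the 2 inositol carriers that were lower together are given for comparison, at chr16:92058072-92058371 on the plus strand for Slc5a3 and at chr7:123214616-123214915 on the plus strand for Slc5a11. Neither has capitals because no motif searched was in them. Their G and C content was 73.3% and 60.7%, against 44.7% for Slc7a11. The median was 52.7% over all promoters and 58.3% over the promoters of carriers. Slc5a3 shares exon bases with Mrps6, as given above, and whether the window shown for Slc5a3 also serves Mrps6 was not examined.
Slc5a3: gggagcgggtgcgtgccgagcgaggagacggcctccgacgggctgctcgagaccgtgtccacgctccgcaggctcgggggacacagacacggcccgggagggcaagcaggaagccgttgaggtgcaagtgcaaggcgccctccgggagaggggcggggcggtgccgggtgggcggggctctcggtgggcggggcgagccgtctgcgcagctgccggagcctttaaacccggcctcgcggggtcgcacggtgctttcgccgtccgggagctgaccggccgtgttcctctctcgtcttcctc
Slc5a11: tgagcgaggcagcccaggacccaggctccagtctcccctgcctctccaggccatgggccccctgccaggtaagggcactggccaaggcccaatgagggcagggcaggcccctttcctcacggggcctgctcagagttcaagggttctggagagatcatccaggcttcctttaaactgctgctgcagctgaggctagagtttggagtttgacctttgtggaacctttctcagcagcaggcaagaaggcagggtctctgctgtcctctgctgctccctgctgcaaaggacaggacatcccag

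Monocarboxylate carriers of the SLC16 family were all tested, 14 genes with 1 higher, 2 lower and a median log2 ratio of -0.10. Slc16a11, a proton-coupled monocarboxylate carrier, averaged 409 counts in controls and 188 after deletion, for a log2 ratio of -1.18 (-1.33 to -1.04). Its close relative Slc16a13 had 512 and 396, for a log2 ratio of -0.43 within the limit. Slc16a14, whose cargo is little known, had 100.3 and 69.3. Its log2 ratio of -0.59 (-0.85 to -0.34) was just past the limit, and it was within the limit when a pseudocount of 5 was used. Slc16a12, which carries creatine, was higher, with 172 and 308 and a log2 ratio of 0.78 (0.63 to 0.94).

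The main lactate carriers stayed within the limit. Slc16a1 (MCT1) had a log2 ratio of -0.04 and Slc16a3 (MCT4) of 0.44. Summed over the family, the level was 66.3 CPM per kilobase in controls and 61.3 after deletion.

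Among the proton-coupled amino acid carriers of SLC36, 3 genes were tested. Slc36a2, which carries small amino acids such as glycine and proline, had 137 and 66.7, for a log2 ratio of -1.09 (-1.34 to -0.85). The other two had -0.27 for Slc36a1 and -0.04 for Slc36a4, so all 3 lay below 0 and 1 was past the limit.

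Among 10 tested genes of the sodium-coupled neutral amino acid carriers of SLC38, 1 was higher. This was Slc38a5, a carrier of glutamine and other neutral amino acids, with 37.7 and 74.7 and a log2 ratio of 0.91 (0.60 to 1.25). The family's abundant members were level. Slc38a2, a widely expressed carrier that amino acid shortage induces, had 7749 and 8236, for a log2 ratio of 0.03 (0.00 to 0.05), and Slc38a10 had 0.04. The median log2 ratio of SLC38 was 0.01, and it was below 0 under both other scalings, at -0.01 in each. The median size of 0.04, regardless of direction, was the smallest of the 14 families.

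Nucleoside carriers fall into the concentrative SLC28 and the equilibrative SLC29 families, with 6 tested genes, 1 higher, none lower and a median log2 ratio of 0.30. Slc28a3, which takes up purine and pyrimidine nucleosides with sodium, had 795 counts in controls and 1444 after deletion, for a log2 ratio of 0.80 (0.73 to 0.87). Slc28a2 had 51 and 75, for a log2 ratio of 0.49 (0.20 to 0.79) within the limit. A related gene, listed as Gm14085 and named Slc28a2b in RefSeq, had 12 and 17, and how reads that fit both genes were counted is not given in the sources used here. Slc29a1, the main equilibrative carrier, was the most abundant carrier per length in Foxo1f/f, at 92.4 CPM per kilobase, and the second in Foxo1d/d, at 81.0. Its log2 ratio was -0.19 (-0.22 to -0.16).

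Peptide carriers of SLC15 had 4 tested genes, 1 of them higher. Slc15a1, the low-affinity carrier of di- and tripeptides, had 19.3 and 41.7, for a log2 ratio of 1.01 (0.60 to 1.49). The high-affinity carrier Slc15a2, at 30.5 and 27.2 CPM per kilobase, was the family's most abundant member in both genotypes and had a log2 ratio of -0.17. Slc15a3, a lysosomal carrier of histidine and peptides, had 0.52 (0.32 to 0.72). The family's median was 0.20. On the opposite strand, 94 of the 2345 exon bases of Slc15a3 are shared with Tmem132a, and without the strand of the reads the 2 genes cannot be told apart there. The same holds for 8 more tested carriers, with the most shared bases in Slc3a1 (601 of 2271, with Prepl), Slc2a12 (407 of 4167, with Tbpl1), Slc7a10 (237 of 1953, with Lrp3) and Slc7a7 (232 of 2491, with Oxa1l).

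No SLC1 gene was past 1.5-fold, yet its 2 abundant members differed in opposite directions. Slc1a5, which exchanges glutamine and other neutral amino acids, averaged 6388 counts in controls and 4818 after deletion, for a log2 ratio of -0.47 (-0.50 to -0.44). Slc1a1, a high-affinity carrier of glutamate and aspartate, had 4506 and 6777, for a log2 ratio of 0.53 (0.50 to 0.56). Slc1a5 made up 61.2% of the family's summed level in controls and 45.6% after deletion, and Slc1a1 made up 31.4% and 46.7%. In Foxo1d/d the pair had nearly equal levels, 65.4 for Slc1a1 and 63.9 for Slc1a5, and the summed level was 145 and 140. The family's median over 6 tested genes was 0.02, and -0.01 and -0.00 under the median and upper-quartile scalings.

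The SLC43 family had 3 tested genes, all below 0 and none past the limit, with a median log2 ratio of -0.23. Slc43a1 was the carrier nearest to the limit on its inner side, with 993 and 705 and a log2 ratio of -0.55 (-0.64 to -0.47). The fatty acid transport proteins of SLC27 had 5 tested genes, none past the limit and a median of 0.10. Slc27a6 had 81 and 118, for a log2 ratio of 0.47 (0.24 to 0.71).

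Ranked by level per length, the 10 leading carriers were mostly level between genotypes. In Foxo1f/f the order was Slc29a1, Slc1a5, Slc38a2, Slc6a6, Slc1a1, Slc3a2, Slc6a2, Slc38a10, Slc43a3 and Slc2a12. In Foxo1d/d Slc2a3 came first, followed by Slc29a1, Slc6a6, Slc1a1, Slc38a2, Slc1a5, Slc3a2, Slc6a2, Slc38a10 and Slc2a12. Slc2a3 was thus the one newcomer and Slc43a3 the one that left, going from the 9th to the 11th place with a log2 ratio of -0.22. All 118 carriers together summed to 1072 CPM per kilobase in controls and 1069 after deletion. Counting intervals of neighbours in the order do not speak to the spread between animals, which was not measured here.

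**Figure D4:**
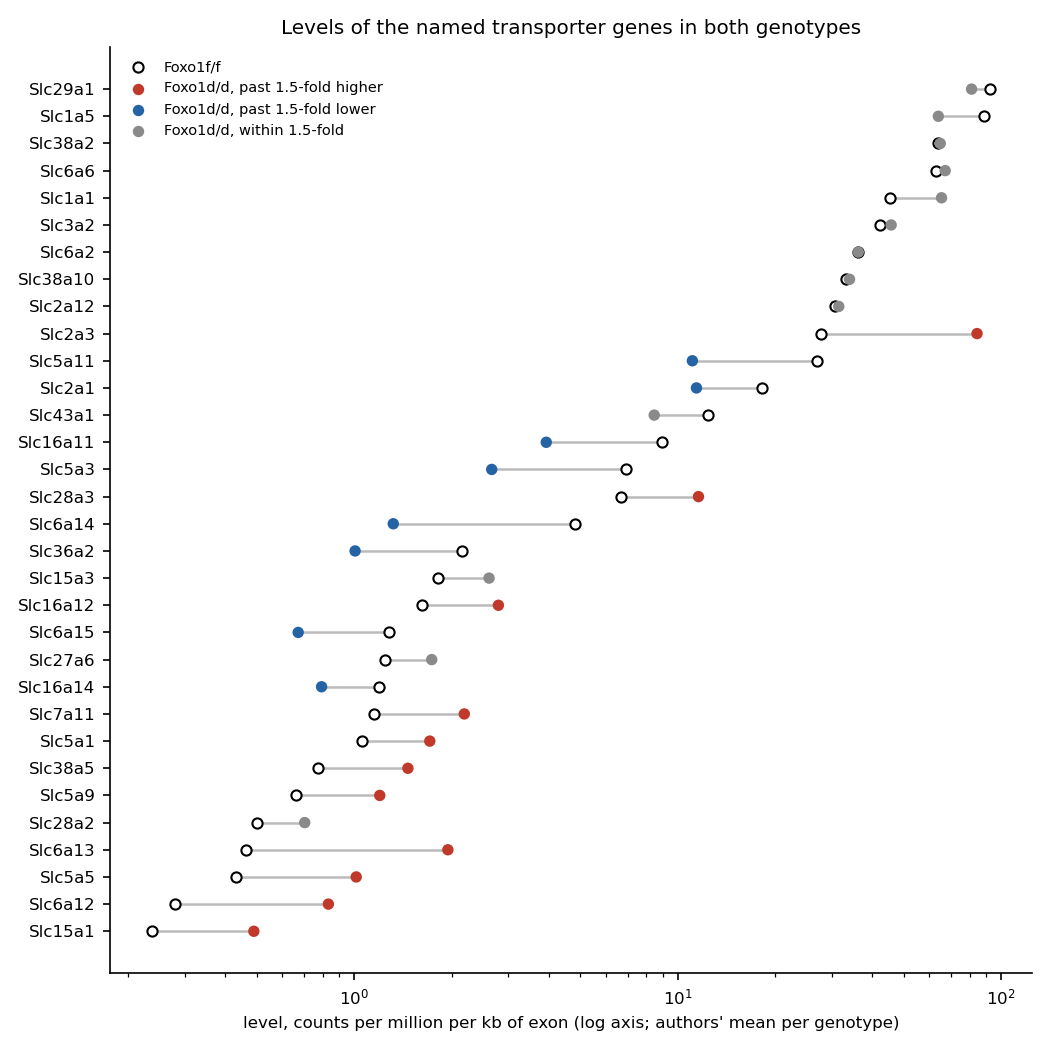
Level of the 32 named carriers in Foxo1f/f (open circles) and Foxo1d/d (filled circles) as CPM per kilobase of exon on a log axis, sorted by the level in Foxo1f/f. Slc2a3 joins the most abundant carriers in Foxo1d/d, Slc5a11 and Slc2a1 lie lower in Foxo1d/d than in Foxo1f/f, and 9 of the 11 carriers that were higher stayed below 3 CPM per kilobase.

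Genes linked to the carriers were described as lists, each beside the whole table's 5.43% higher, 3.51% lower and median of 0.02. Of 11 tested partners of the carriers, none was higher and 1 was lower, and the median log2 ratio was -0.10. Txnip, whose product promotes removal of glucose carriers from the cell surface, had 22490 and 15749. Its log2 ratio of -0.58 (-0.59 to -0.56) was just inside the limit. The median and upper-quartile scalings lower every ratio slightly and would put Txnip past the limit, as a further lower partner. The related Arrdc4 had -0.37. Bsg, the chaperone of lactate carriers, had -0.04. Tmem27 was under the minimum with 0.333 and 6.

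All 20 amino acid response genes were tested, with 2 higher, 1 lower and a median log2 ratio of 0.13. Mthfd2 (1.07) and Stc2 (0.64) were higher, and Trib3 (-0.93) was lower. Atf4, which encodes the factor that drives this response, had a log2 ratio of 0.12, and the asparagine synthetase gene Asns had 0.29. The list therefore did not go in 1 direction.

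Enzymes that make or use amino acids had 27 tested genes, 5 higher and 1 lower, with a median of 0.04. Bcat1, which starts the breakdown of branched-chain amino acids, had 2084 and 4782, for a log2 ratio of 1.14 (1.09 to 1.18). Cbs, on the route from homocysteine to cysteine, had 2116 and 3965, for a log2 ratio of 0.84 (0.80 to 0.89). The tryptophan-degrading Ido1 (0.82) was also higher, and the creatine kinase gene Ckm (-0.67) was lower. Ass1 was listed at 0 in both genotypes. No listed 0 given here was checked against the reads, so it does not show that the RNA was absent.

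Among 17 tested genes for the first and last steps of glucose use and for lactate, 4 were higher and 1 was lower, with a median of -0.00. Among the higher genes were the hexokinases Hk2 (1.02) and Hk3 (0.77) and the glycolytic regulator Pfkfb3 (1.10). Pfkfb3 had the most counts of these, 2554 in controls and 5731 after deletion. Pdk4, whose product holds back the use of pyruvate in mitochondria, had 951 and 339, for a log2 ratio of -1.55 (-1.65 to -1.45). The hexokinase gene Hk1 had -0.00. Akr1b3 was listed at 0 in both genotypes.

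Of 14 hypoxia-linked genes, 1 was higher (Pfkfb3) and 1 lower (Ndrg1, -0.85), and the median was 0.18. Vegfa had a log2 ratio of 0.50, Ldha 0.40 and Car9 -0.11. Slc2a1, which is often counted with these genes, was lower, as given above, and Slc16a3 was at 0.44.

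**Figure D5:**
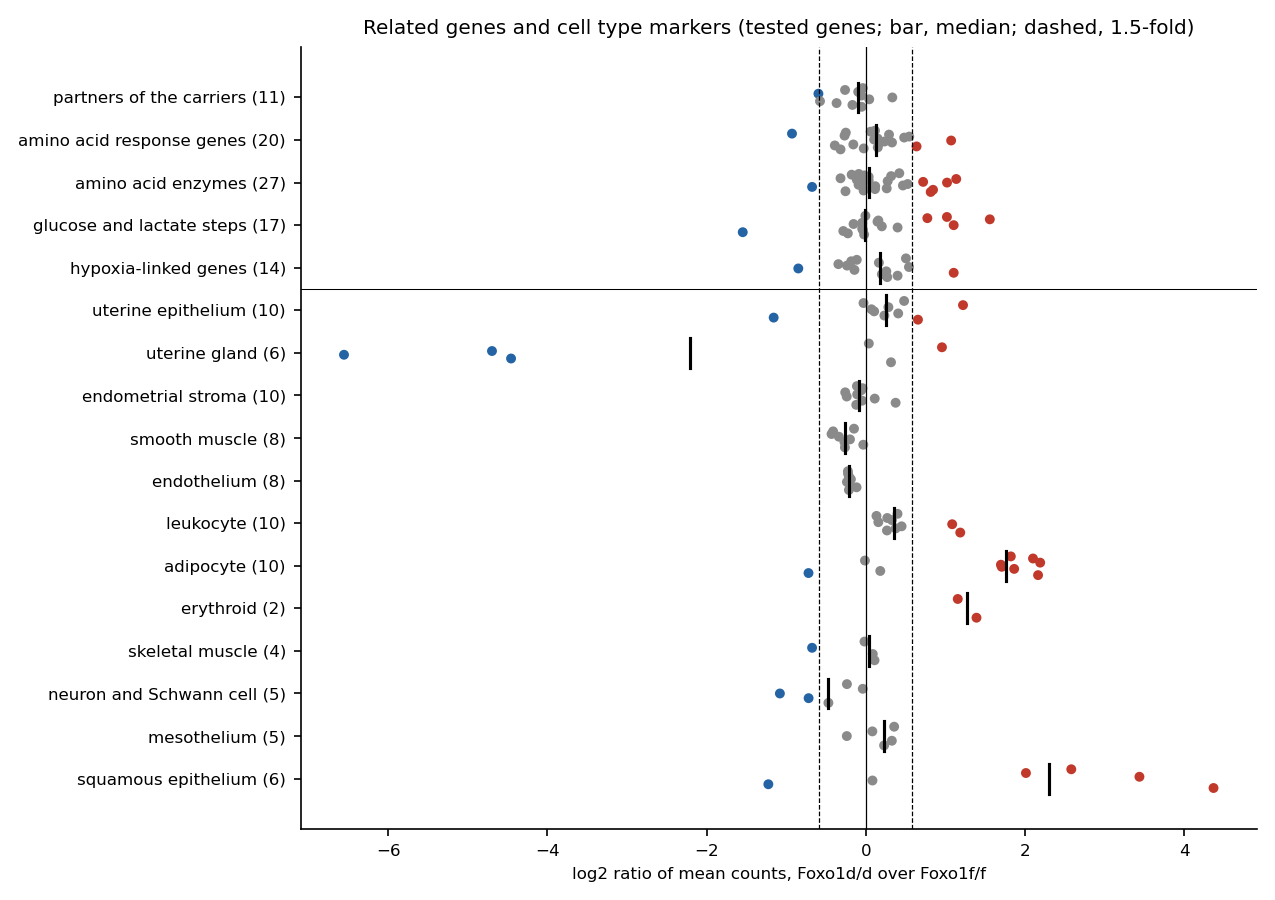
Foxo1d/d to Foxo1f/f log2 ratio for the tested genes of 5 related lists (above the line) and 12 sets of cell type markers (below it), with the median of each as a black bar and the 1.5-fold limits dashed. The adipocyte and squamous sets have medians of 1.76 and 2.30, 3 of 6 gland markers lie below -4, and smooth muscle and endothelium lie slightly below 0.

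The tissue was checked against markers of its cell types, and the part of cell make-up in the carriers' ratios was not tested. Uterine epithelial markers had 2 of 10 higher, 1 lower and a median log2 ratio of 0.26, with a summed level of 820 CPM in controls and 971 after deletion. Cdh1 had the most counts in this set. Of 6 tested gland markers, Prss28, Prss29 and Spink1 (Spink3 in the table) were lower, with log2 ratios of -6.56, -4.46 and -4.70, and Cxcl15 (Il8 in the table) was higher at 0.96, while Foxa2 had 0.04 and Wfdc2 0.32. Their summed level was 985 and 220 CPM, with the most counts of Foxo1f/f in Prss29, and the set's median was -2.21. Stromal markers had none of 10 past the limit and a median of -0.08, with 12089 and 11844 CPM and the most counts in Col3a1.

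Smooth muscle markers had none of 8 past the limit, all 8 below 0 and a median of -0.26, with 8274 and 6887 CPM and the most counts in Myh11. Endothelial markers likewise had none of 8 past the limit, all below 0 and a median of -0.21, with 1631 and 1409 CPM and the most counts in Pecam1. All 10 tested leukocyte markers were above 0, with 2 past 1.5-fold (Cd3e at 1.09 and S100a9 at 1.19), a median of 0.35, and 563 and 684 CPM, with the most counts in Lyz2. Mesothelial markers had none of 5 past the limit, a median of 0.23 and 210 and 194 CPM, with the most counts in Wt1.

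Adipocyte markers had 7 of 10 higher and 1 lower, a median of 1.76, and 99.02 and 139 CPM. Adipoq had 53.7 and 201, and the log2 ratios of Plin1, Cidec, Lep, Fabp4, Cfd and Retn lay between 1.70 and 2.19. Lipe, with the most counts of the set, had 0.18 and Pck1 had -0.72. Squamous epithelial markers had 4 of 6 higher and 1 lower, a median of 2.30, and 9.81 and 47.9 CPM. Sprr2f, with the most counts of Foxo1d/d, alone had 1.19 and 25.3 CPM of these sums. Krt5 had 2.58, Krt14 2.01 and Krt15 3.44, while Trp63 had 0.08 and Dsg3 -1.22.

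In the erythroid set 2 genes were tested and both were higher. Alas2 had 147 and 403, for a log2 ratio of 1.39, and the haemoglobin gene Hbb-bs (Beta-s in the table) had 1087 and 2528, for 1.16. Another 4 haemoglobin genes were listed at 0 in both genotypes, and the set summed to 47.3 and 108 CPM. Skeletal muscle markers had 1 of 4 lower (Ckm), a median of 0.04 and 110 and 108 CPM, with the most counts in Acta1, while Myh4 was listed at 0. Neuron and Schwann cell markers had 2 of 5 lower, a median of -0.47 and 18.5 and 16.1 CPM.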

How the data were processed

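RNA-seq libraries of whole uterus were grouped by genotype per the labels. The deposited table holds, per the file headers, mean raw counts per gene for each genotype, made by the authors from 6 libraries. Per the study's methods, poly(A) libraries were sequenced on an Illumina HiSeq, reads were trimmed and aligned with STAR, duplicates were removed with Picard, and HTSeq counted reads over RefSeq genes. Those methods name mm10, whereas the submitters' processing notes list mm9, so coordinates are printed only for promoter windows, in the build of the RefSeq table. The strand setting of the counting is not given in the sources used here. The table's edgeR columns, which hold the authors' fold change, log2 CPM, p-value and false discovery rate, were not used.

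Each mean count was scaled by its column total. Ratios used a pseudocount of 1, a minimum average mean count of 10 and a limit of 1.5-fold, with 95% Wilson intervals from the summed counts. The counts summed to 78375043 for Foxo1f/f and to 81773890 for Foxo1d/d. Exon lengths were unions of RefSeq-matched exons in GENCODE M21 and were found for all 118 carriers. The calculation was tested on simulated data drawn with counting error only, which does not speak to spread between libraries or animals. Named genes were tested carriers past 1.5-fold, the 10 with the most counts per length, the 5 nearest to the limit inside it, and others only with their family or list. The carriers and lists were chosen with earlier results of these data known. Some genes of the families and lists are not reported here by name. Listed symbols were matched by name, or else by Entrez ID or RefSeq synonym, which gave Trarg1 (Tusc5 in the table), Cxcl15 (Il8), Spink1 (Spink3), Adgre1 (Emr1) and Hbb-bs (Beta-s). Hbb-bt was not found. Alternatives were other scalings, pseudocounts, minima and limits. Python 3.11.15, numpy 2.4.6, pandas 2.3.3, scipy 1.17.1 and matplotlib 3.10.9 were used.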

Additional observations from a re-analysis of the deposited data

How the results depend on the processing

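Scaling to a median log2 ratio of 0 or by the upper quartile, and a pseudocount of 0.1, left the same 11 higher and 8 lower carriers. With a pseudocount of 5 the same 11 were higher and 7 of the 8 were lower, without Slc16a14. An average mean count of at least 50 left 9 higher and the same 8 lower, since Slc6a12 and Slc15a1 were no longer tested. A minimum of 1 tested 107 carriers and gave 13 higher and 13 lower, the 2 and 5 added ones being genes with few counts. A 2-fold limit, which asks for a larger ratio, gave 5 higher and 5 lower. When the bound of the counting interval nearest to 1 had to pass 1.5-fold, 10 higher and 7 lower carriers remained, without Slc5a1 and Slc16a14. Leaving out 10 tested carriers whose exons overlap those of another gene, an alternative chosen after seeing the data, gave 11 higher and 7 lower, without Slc5a3.

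The median log2 ratio of the carriers stayed between -0.04 and -0.00 under every alternative tried for it. Of 128 values of the 32 named carriers under other scalings and pseudocounts, 127 stayed within their counting interval and none changed sign among those past 1.5-fold. The exception was Slc6a6, whose interval is narrow. The largest move was 0.17, for Slc6a12. Each scaling moves all ratios by the same amount, and pseudocounts change mainly the ratios of genes with few counts. A change of sign past 1.5-fold was therefore hardly possible, and these values are not independent checks.

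No paired analysis was possible because the table gives 1 mean per genotype and no value of a single library. For the same reason leaving out a library could not be done. Of the 11 higher carriers, 8 had a mean count under 200 in controls.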
